A study of Homo sapiens with 12 samples.

Results

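The olfactory receptor genes of human chromosome 11 were described in the H3K27me3 peak lists of SH-SY5Y neuroblastoma cells with and without Tau. Members were all protein-coding genes of GENCODE release 44 on chromosome 11 (hg38) whose symbol is OR, a number, 1 or 2 letters and a number. This gave 172 of the 20033 protein-coding genes. By family number, 55 are class I receptors (families 51 to 56) and 117 are class II receptors. With a gap of at most 500 kb between neighbours, all members but OR2AT4 fell into 10 clusters, numbered here along the chromosome. Cluster 1 holds all 55 class I genes over 1833 kb, from OR52B4 to OR52W1 (chr11:4367263-6200186). The 9 other clusters hold class II genes, the largest being cluster 7 with 48 members from OR4A16 to OR5AK2 (chr11:55343201-56989843) and cluster 10 with 22 members from OR6X1 to OR8A1 (chr11:123753580-124582942).

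H3K27me3 is histone 3 trimethylated at lysine 27. Chromatin carrying it was precipitated from SH-SY5Y, a human neuroblastoma line, in 3 genotypes: wild type cells that express Tau (WT), and the CRISPR-Cas9 Tau-KO lines 231K and 232P, both carrying a knock-out of the Tau gene MAPT in the same SH-SY5Y background. Each genotype had 2 biological replicates, and the 6 input samples were not analysed here. Each Tau-KO genotype is a single derived cell line, so that line and genotype cannot be told apart within it. No sample had a peak within 1 kb of a start of MAPT, which therefore does not check the labels, and in both files labelled 232P the names of the peaks start with 231P; the labels were followed. WT replicate 1 had 285826 peaks and WT replicate 2 had 222191. The 231K lists had 271413 and 212347, the 232P lists 147118 and 199677, always in the order of the replicates. All 6 counts lie above the range of peak counts given in the study's methods. The list of 232P replicate 1 stands apart, with 4538 peaks on chromosome 11 against 7474 to 10493 in the other samples. The smallest peak width was 175 to 179 bp in the samples numbered 1 and 240 to 262 bp in those numbered 2, and the share of length covered by peaks was higher in the latter in each genotype.

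Olfactory receptors are G protein-coupled receptors that detect odorants. Each mature olfactory neuron expresses a single allele of a single receptor gene and keeps the others silent. Class I genes resemble the receptors of fish and lie together in a single region, whereas class II genes are spread over many regions. The coding sequence of most of these genes lies in a single exon, and the clusters grew by duplication, so that neighbours are often similar. H3K27me3 is written by the Polycomb repressive complex PRC2 at repressed genes, and is best known for developmental regulators with CpG-rich promoters. Neuroblastoma cells are of sympathetic and not of olfactory origin.

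In every sample but 232P replicate 1, most receptor genes had an H3K27me3 peak within 1 kb of an annotated start, called a TSS peak here. Of the 172 genes, 146 and 131 had a TSS peak in WT replicates 1 and 2, or 84.9% and 76.2%. In 231K, the numbers were 124 and 133, or 72.1% and 77.3%. In 232P, they were 75 and 113, or 43.6% and 65.7%. Among all protein-coding genes, the share was 18.2% and 18.4% in WT, 16.7% and 18.3% in 231K, and 14.5% and 15.7% in 232P, so that the receptor genes lay above it in 6 of 6 samples. A TSS peak in all 6 samples was found for 65 receptor genes, or 37.8%, against 11.4% of all genes. Without 232P replicate 1, 97 receptor genes had a TSS peak in all samples. Most of these peaks were weak or short: with only peaks whose -log10 q-value reached 5, TSS peaks were found at 40 and 62 members in WT, 34 and 57 in 231K, and 6 and 25 in 232P, with 1 in all 6 samples. With at least 50% of the start windows covered, the counts were 61 and 81, 65 and 82, and 4 and 46, with 2 in all 6 samples. The shares over all protein-coding genes were not computed at these 2 settings, so the comparison with all genes holds for the full lists only. No sample had a TSS peak at 18 receptor genes, whereas 78.1% of all genes had none. A weaker mark in all cells and a mark in part of the cells cannot be told apart from these lists.

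**Figure D1:**
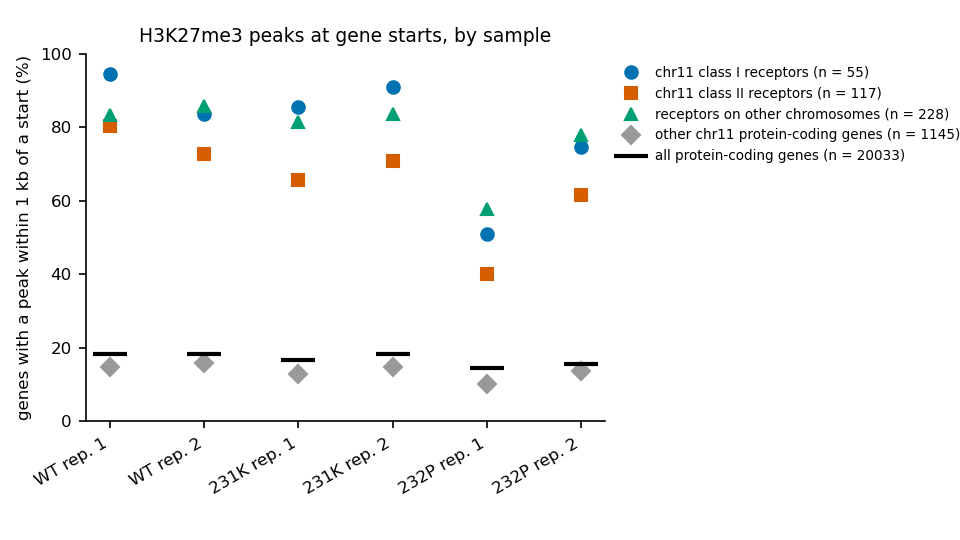
Percent of genes with an H3K27me3 peak within 1 kb of an annotated start (vertical axis) in each of the 6 samples, for class I and class II receptors of chromosome 11, receptors of other chromosomes, other genes of chromosome 11 and all protein-coding genes. The receptors of chromosome 11 lie between 40.2% and 94.5% and all protein-coding genes between 14.5% and 18.4%, and 232P replicate 1 has the lowest value of each set.

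Most other genes of the chromosome did not share this level. Of 1145 other protein-coding genes of chromosome 11, 14.8% and 15.7% had a TSS peak in WT, 12.9% and 14.8% in 231K, and 10.2% and 13.5% in 232P. The 30 of them that start inside the clusters did share it, with 73.3% and 80% in WT, 80% and 83.3% in 231K, and 43.3% and 73.3% in 232P, ahead of the receptor genes in 4 of 6 samples. Of these 30, 6 carry receptor symbols that end in P. Some have many annotated starts, with 15 at TRIM22, so that the lengths searched differ. The 228 receptor genes of the same symbol form on other chromosomes were also marked more often than all genes, with 83.3% and 86.0% in WT, 81.6% and 83.8% in 231K, and 57.9% and 78.1% in 232P. Of these, 121, or 53.1%, had a TSS peak in all 6 samples. They were ahead of the receptors of chromosome 11 in 5 of 6 samples, the exception being WT replicate 1, and this difference was not tested.

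The start itself was not the only marked place, since the clusters were marked over long stretches. Peaks covered 26.3% and 35.1% of the length of the 10 clusters in WT, 24.1% and 34.9% in 231K, and 6.27% and 25% in 232P. The rest of chromosome 11 was covered to 4.29% and 6.03% in WT, 3.87% and 6.27% in 231K, and 1.15% and 4.64% in 232P. The clusters make up 4.39% of the chromosome and held 19.9% to 22.3% of its covered length. The mean difference between clusters and rest was 20.9 percentage points ± 8.69 (SD, n = 6), with clusters higher in 6 of 6 samples (exact permutation test over 64 sign flips, two-sided, p = 0.03125, the smallest p this design allows; 0.125 after Benjamini-Hochberg adjustment over 12 tests). After adjustment, this and all other tests of these 12 stayed above 0.05.

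Single peaks in the clusters were not much stronger than elsewhere. There were 373 and 281 peaks per Mb in the clusters in WT against 64.4 and 52.4 in the rest of the chromosome, 355 and 255 against 59.7 and 49.1 in 231K, and 163 and 251 against 27.8 and 46.6 in 232P. The median fold enrichment, the reads at the summit over the local background with 1 added to each, was 3.54 in the clusters and 3.32 in the rest in WT replicate 1, and it was 3.78 in both in WT replicate 2. Over the 6 samples it differed by 0.0714 ± 0.0951 (SD, n = 6; exact permutation test, two-sided, p = 0.25). The median -log10 q-value differed by 0.0549 ± 0.0887 (exact permutation test, p = 0.5). The median width differed by 28.75 bp ± 30.1, with wider peaks in the clusters in 5 of 6 samples (exact permutation test, p = 0.0938). With peaks within 1 kb of each other merged, the difference was 352 bp (exact permutation test, p = 0.03125 before adjustment). The median height of a peak in the clusters was 7 to 9 reads at the summit over a median local background of 1.02 to 1.52 reads.

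The widest peaks reached the size of domains. In WT replicate 2, a peak of 20085 bp in cluster 9 (chr11:59508257-59528341) ran over the coding sequence of OR4D9. In 231K replicate 2, a peak of 20841 bp lay in cluster 10 (chr11:124463445-124484285) and overlapped no coding sequence of a member. In 232P replicate 1, the widest peak of the clusters had 2092 bp. On the scale of 100 kb, 57 of 1344 windows of the chromosome, or 4.24%, lay mostly in clusters, and 10 to 13 of the 50 most covered windows of a sample were among them.

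Within the clusters, coding sequence was covered more than the space between genes. Of the coding bases of the members, 44.9% and 48.5% lay under peaks in WT, against 24.7% and 33.2% between genes. In 231K, this was 39.9% and 47.3% against 22.8% and 33.3%. In 232P, it was 14.4% and 33.1% against 5.90% and 23.6%, so that the coding bases were ahead in 6 of 6 samples. This was not particular to coding bases: the other exonic bases of the members were covered to 37.6% and 50.2% in WT, 34.3% and 52.7% in 231K, and 8.63% and 39.5% in 232P, above the coding bases in the 3 samples numbered 2. Coding sequence makes up 2.74% of the cluster length and held 3.57% to 5.60% of the summits. The start windows were set against tiles of the same length. Of the 135 members in clusters with 1 annotated start, 83.0% and 71.9% had a TSS peak in WT, 68.1% and 74.1% in 231K, and 37.0% and 61.5% in 232P. Of the 2950 consecutive 2 kb tiles of the clusters, which are as long as such a window, 62.0% and 63.1% held a peak in WT, 58.2% and 59.9% in 231K, and 28.7% and 53.2% in 232P. The 36 members with several annotated starts, and thus a larger window, had a TSS peak more often, with 69.4% to 94.4% per sample.

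Members were ranked by the number of samples with a TSS peak and then by the median -log10 q-value. By the median alone, OR10A3 with 7.71 and OR9Q1 with 7.2, both marked in 5 samples, would be among the first 12. Of the first 12, 9 have 2 or 3 annotated starts and thus a longer stretch searched, where 36 of the clustered members have several. First came OR56A3, a class I gene of cluster 1, with 12.2 and 14.1 in WT, 11.1 and 16.7 in 231K, and 4.49 and 5.86 in 232P. Its start lies next to that of TRIM5 on the other strand, and the strongest peak at both was the same in WT and 231K. OR8A1, the last gene of cluster 10, had 5.28 and 12.1 in WT, 7.48 and 10.6 in 231K, and 3.75 and 8.27 in 232P. OR8B12, of the same cluster, had 5.55 and 8.45 in WT, 7.94 and 10.1 in 231K, and 3.01 and 7.43 in 232P. For all 3 genes the lowest value was that of 232P replicate 1, for OR8A1 the values of all genotypes overlapped, and for OR8B12 both values of 231K lay above both of 232P while those of WT overlapped with each line. The other members of the first 12 were OR8B4, OR8D1, OR8B8 and OR8D4 of cluster 10, OR52I2 and OR51E1 of cluster 1, OR4D6 and OR4D9 of cluster 9, and OR2AG2 of cluster 2, with medians between 6.27 and 7.69. For scale, the median was 12.4 at WT1, the Wilms tumour gene, and 11 at PAX6, developmental regulators of chromosome 11 with known Polycomb marks, and 9.36 at BARX2. These 3 genes had a TSS peak in all 6 samples, ALX4 in 4 and ASCL2 in none. The values at WT1 are the strongest peak over 21 annotated starts and those at PAX6 over 66, against 2 at BARX2 and at OR56A3, so that the lengths searched differ.

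Some of the receptors are known for roles outside the nose or for a single odorant. OR51E1 and OR51E2, first described as prostate-specific receptors, both had a TSS peak in 6 samples, with a median -log10 q-value of 6.89 and 4.72. OR5A1 of cluster 9, the receptor for the violet odorant beta-ionone, had a TSS peak in 6 samples with a median of 5.13. OR51E2 and OR5A1 were named for these roles after their values were seen. OR2AT4, which responds to a sandalwood odorant in skin cells, had no TSS peak in any sample. OR5AN1 of cluster 9, a receptor for musk odorants, had a TSS peak in both WT samples and in 231K replicate 2, with -log10 q-values of 2.58, 2.13 and 3.83, and none in the other samples.

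**Figure D2:**
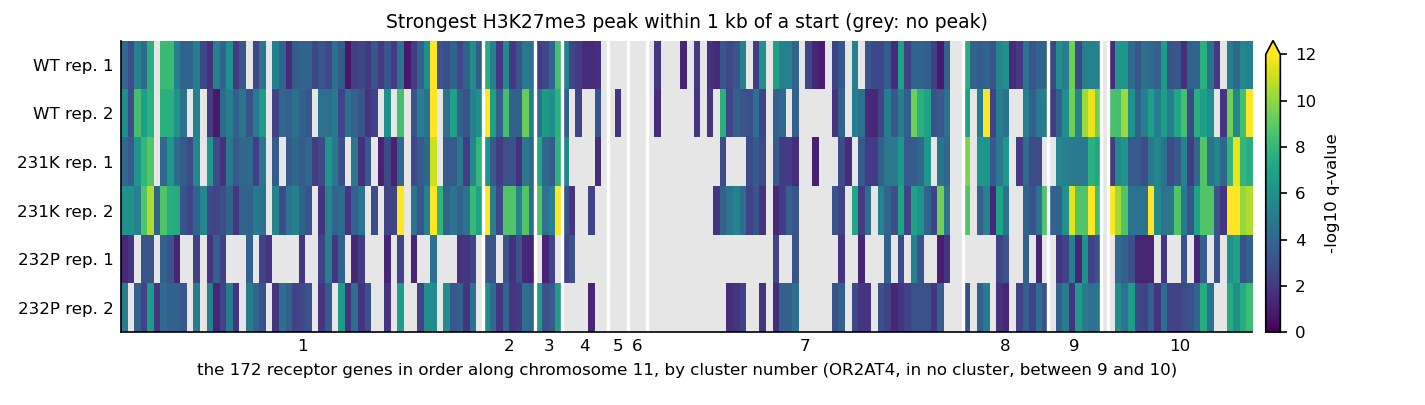
The strongest -log10 q-value of a peak within 1 kb of a start (colour, grey for no peak) for the 172 receptor genes in their order along chromosome 11 (horizontal) in the 6 samples (vertical), with white lines between clusters. Cluster 6 is grey in all samples, cluster 5 and most of the first genes of cluster 7 are grey in the Tau-KO samples, and the row of 232P replicate 1 has the most grey.

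The promoters of the receptor genes differ from those of most genes in their base composition. Promoters of 3 genes are shown, the first 2 of the ranked members whose printed bases had a peak in all 6 samples and the first cluster end whose gene had a peak in none. Each is the 250 bases before the RefSeq start (GRCh38.p14), 5′ to 3′, with CG dinucleotides, the sites of DNA methylation, in capitals. They lie at chr11:124569747-124569996 (plus strand), chr11:124543655-124543904 (minus strand) and chr11:48488543-48488792 (plus strand).
OR8A1: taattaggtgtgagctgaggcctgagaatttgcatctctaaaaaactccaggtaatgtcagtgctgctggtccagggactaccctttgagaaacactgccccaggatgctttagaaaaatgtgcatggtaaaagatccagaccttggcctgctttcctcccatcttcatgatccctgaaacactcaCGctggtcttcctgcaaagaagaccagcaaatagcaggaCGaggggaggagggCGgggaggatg
OR8B12: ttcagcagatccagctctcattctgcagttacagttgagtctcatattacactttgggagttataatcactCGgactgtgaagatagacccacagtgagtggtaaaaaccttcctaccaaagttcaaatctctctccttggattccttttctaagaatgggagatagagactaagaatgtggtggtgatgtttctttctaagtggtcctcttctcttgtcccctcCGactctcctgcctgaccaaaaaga
OR4A47: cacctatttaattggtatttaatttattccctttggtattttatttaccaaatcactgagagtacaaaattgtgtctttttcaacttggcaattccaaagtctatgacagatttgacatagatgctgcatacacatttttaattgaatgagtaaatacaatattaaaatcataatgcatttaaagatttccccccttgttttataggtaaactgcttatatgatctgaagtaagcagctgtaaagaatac
The sequence of OR8A1 holds 3 CG dinucleotides, that of OR8B12 holds 2 and that of OR4A47, which had no TSS peak in any sample, holds 0. In OR8A1, peaks covered all 250 bases in 5 samples and 82 bases in 232P replicate 1. In OR8B12, they covered all in 5 samples and 201 bases in WT replicate 1, and in OR4A47 they covered 0 bases in each sample. For 133 of the 172 members, a RefSeq promoter from 250 bases before to 50 bases after the start was at hand. Their median GC content was 37% and their median number of CG dinucleotides 1, against 63% and 22 in the promoters of 15345 protein-coding genes. The 50 members with a TSS peak in all 6 samples had a median GC content of 39.8% and the 13 with none had 33.3%, with a median of 1 CG dinucleotide in each set. The homeodomain core TAATTA, which reads the same on both strands, was found in 23.3% of the members and in 3.28% of all promoters. CCCNNGGG, which matches the core bound by EBF factors and also reads the same on both strands, was found in 7.52% and 21.8%. These matches of letters are descriptions of the windows and not sites. Members and all promoters differ in median GC content, with 37% and 63%. The part of base composition in the shares of TAATTA and CCCNNGGG was not tested.

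The 10 clusters differed widely in cover. Cluster 10 was covered to 41.9% and 62.1% in WT, 43.7% and 65.2% in 231K, and 11.9% and 48.6% in 232P. Cluster 3, with OR5P2 and OR10A3 at its ends, was covered to 48.9% and 60.2% in WT, 52.0% and 66.7% in 231K, and 13.9% and 53.8% in 232P. The class I cluster 1 was covered to 33.2% and 44.2% in WT, 31.3% and 44.2% in 231K, and 8.02% and 32.7% in 232P. In each sample, clusters 2, 3 and 10 were covered more than cluster 1, and clusters 4 to 9 less. At the other end, cluster 6 with OR4C46, OR4A8 and OR4A5 (chr11:54603069-54707902) had no peak in any sample. Cluster 5, from OR4C13 to OR4C45 (chr11:49952391-50033794), was covered to 2.95% and 1.73% in WT and had no peak in the 4 Tau-KO samples. These clusters, together with cluster 4 and the first genes of cluster 7, lie nearest to the centromere.

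**Figure D3:**
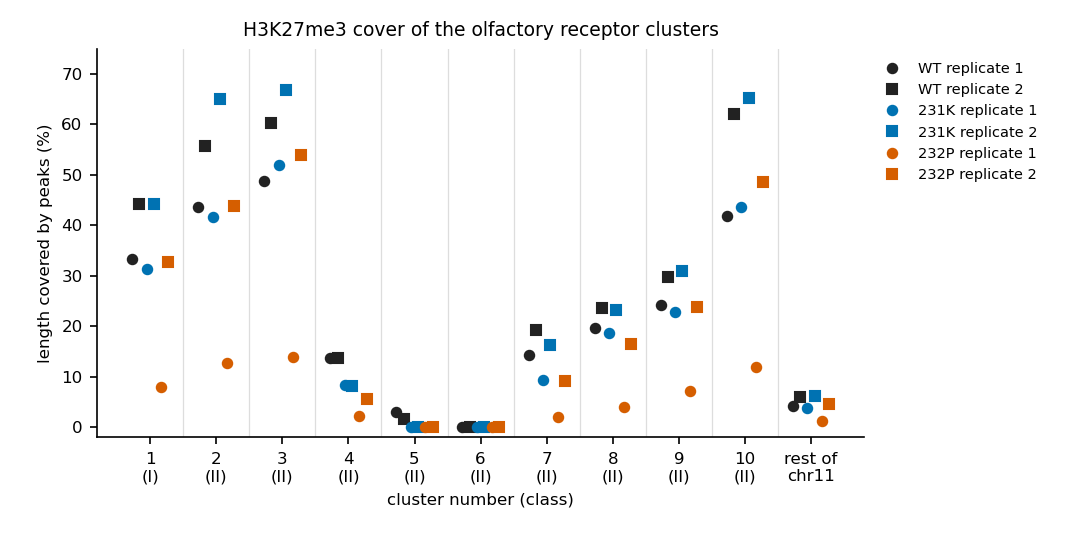
Percent of the length of each cluster covered by peaks (vertical axis) for clusters 1 to 10, with the class in brackets, and for the rest of chromosome 11, 1 point per sample (black WT, blue 231K, orange 232P, circles replicate 1, squares replicate 2). Clusters 2, 3 and 10 lie highest, clusters 5 and 6 lie at or near 0, and the orange circles of 232P replicate 1 are the lowest points of clusters 1 to 4 and 7 to 10.

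Class I was ahead of class II as a whole. The class II clusters together were covered to 23.1% and 31.1% in WT, 20.9% and 30.7% in 231K, and 5.48% and 21.6% in 232P, below cluster 1 by 10.1 percentage points ± 3.97 (SD, n = 6) and lower in 6 of 6 samples (exact permutation test over 64 sign flips, two-sided, p = 0.03125, 0.125 after Benjamini-Hochberg adjustment). The order of the single clusters shows that this was not shared by all class II clusters, and since all class I genes lie in cluster 1, class and region cannot be told apart. A TSS peak was found for 94.5% and 83.6% of class I members in WT, 85.5% and 90.9% in 231K, and 50.9% and 74.5% in 232P. For class II, the shares were 80.3% and 72.6%, 65.8% and 70.9%, and 40.2% and 61.5%. The difference was 14.8 percentage points ± 4.12 in favour of class I (SD, n = 6; exact permutation test, two-sided, p = 0.03125, adjusted 0.125). The length searched is larger for members with several annotated starts. With 1 kb on each side of the start codon, class II minus class I was -9.43 points (exact permutation test, p = 0.03125). With at least 50% of the start windows covered as the criterion, the difference was 2.94 percentage points (exact permutation test, p = 0.344). With only the peaks of a -log10 q-value of at least 5, it was not seen: 20.9% of class I and 22.1% of class II members had a TSS peak on average. All 18 members with no TSS peak in any sample were of class II.

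Along cluster 7, the mark set in with distance from the centromere. In its first 500 kb, none of 14 members had a TSS peak in all 6 samples and 6 had none in any sample. From there to 1000 kb, 3 of 17 had a TSS peak in all samples and 3 in none. In the rest, 5 of 17 had it in all and 2 in none. The members with a TSS peak per sample in the first 500 kb numbered 8 and 6 in WT, 1 and 4 in 231K, and 0 and 2 in 232P. In the last stretch, they numbered 14 and 15 in WT, 13 and 14 in 231K, and 7 and 13 in 232P, with 232P replicate 1 lowest in both stretches. The OR5M genes of this last stretch were marked most evenly, with 4 of 6 in all samples, whereas OR5AK2 at the far end had no TSS peak in any sample. The window of 1500 to 1600 kb, which holds no member, had no peak in any sample.

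**Figure D4:**
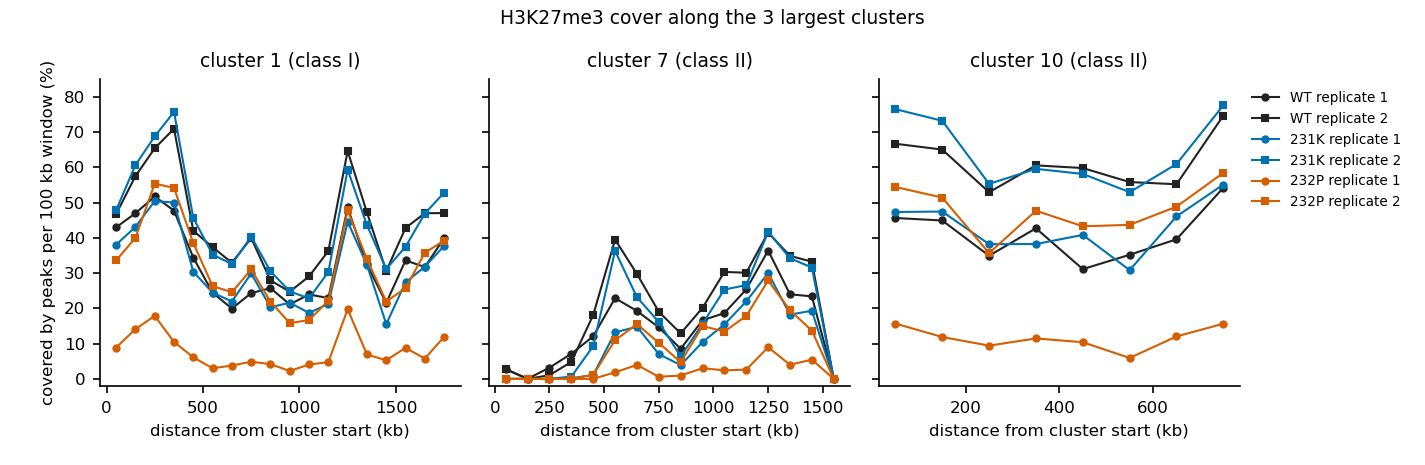
Percent covered by peaks (vertical axis) in consecutive 100 kb windows by distance from the cluster start (kb, horizontal axis) for clusters 1, 7 and 10, 1 line per sample, with final stretches under 50 kb left out. Cluster 7 starts near 0 and rises to between 8.97% and 41.7% in the window of 1200 to 1300 kb, while cluster 10 is covered throughout.

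The mark ran past the ends of some clusters and stopped near those of others. The 100 kb before and after cluster 1 were covered to 20.5% and 40.9% on average, those of cluster 2 to 32.1% and 31.9%, and those of cluster 3 to 42.0% and 26.9%. In cluster 9, the window of 200 to 300 kb from the start had no peak in any sample. OSBP, an oxysterol-binding protein, and PATL1, a factor of mRNA decay, start inside this cluster and had no TSS peak in any sample. The 100 kb before cluster 10 were covered to 1.16% on average and the 100 kb after cluster 7 not at all, whereas the 100 kb before cluster 8 were covered to 44.3%, more than the 17.6% of the cluster itself. In the 100 kb after cluster 1 lies CNGA4, a subunit of the olfactory transduction channel, which had a TSS peak in all 6 samples.

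Inside the clusters lie the starts of 30 other genes annotated as protein-coding, 19 of them in cluster 1, and 6 of the 30 carry receptor symbols that end in P (OR51C1P, OR56B2P, OR5D3P, OR5AK3P, OR8G2P and OR8G3P). A TSS peak was found for 22 and 24 of the 30 in WT, 24 and 25 in 231K, and 13 and 22 in 232P, in all 6 samples for 12 and in none for 4. First in rank, with a searched length that grows with the number of starts (14 for TRIM5, 15 for TRIM22, 11 for TRIM6, 4 for TRIM34), were genes of the tripartite motif family, many of them ubiquitin ligases of antiviral defence, in cluster 1. TRIM5 had a median -log10 q-value of 11.6, TRIM34 had 9.02, TRIM22 had 7.55 and TRIM6 had 6.96. The read-through gene TRIM6-TRIM34 had 5.67. ENSG00000239920 had 9.02 and the same value as TRIM34 in 4 samples. TRIM51 of cluster 7 had a median of 6.49, and HBD, the delta-globin gene of the globin locus inside cluster 1, had 5.67. Beside OSBP and PATL1, TRIM68 and OR5AK3P had no TSS peak in any sample.

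Counts by family are set beside the 37.8% of all members with a TSS peak in all 6 samples, and no difference between families was tested. Of 26 OR4 members, 11 had no TSS peak in any sample and 5 had it in all 6. These 5 were the OR4D genes, OR4D5, OR4D6, OR4D9, OR4D10 and OR4D11, which lie in clusters 9 and 10. The other 21 OR4 genes lie in clusters 4 to 7, and 0 of them had a TSS peak in all samples. Of the OR10 family, 10 of 16 members had a TSS peak in all 6 samples and 0 had none. For OR8 this was 10 of 23, for OR51 11 of 22, for OR52 9 of 27, for OR56 3 of 6, and for OR5 9 of 35 with 5 in no sample. OR51, OR52 and OR56 lie in 1 cluster, OR8 in 2, OR5 in 4, and OR4 and OR10 in 6 each. The parts of family and position in these counts were not tested.

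Similar copies could hide or spread a mark, because reads that fit several places are hard to place. Of all 100-base sequences that start in a cluster, 95.1% to 98.6% per cluster occur only there in the primary assembly, against 96.0% in the rest of the chromosome. In the start windows of 161 of the 172 members, or 93.6%, at least 95% of them were unique, and in 136 all were. With these 161 members alone, 139 and 124 had a TSS peak in WT, 117 and 125 in 231K, and 70 and 106 in 232P. Of the clusters with few or no peaks, cluster 5 had 97.8%, cluster 4 had 95.3% and cluster 6 had 95.3%, the latter values being below the rest of the chromosome, and cluster 3, the most covered on the mean over samples, had the lowest value with 95.1%. The part of read placement in the missing peaks was not tested. The nearest copy of a member among the 400 receptor genes compared was on chromosome 11 for 166 members, with a median identity of the coding DNA of 70.9%. Of the 25 members with a copy of at least 90% identity, 11 had a TSS peak in all 6 samples and 0 had none. Of the 25 members at 80% to 90%, 8 had a TSS peak in all and 6 in none, and of the 42 at 70% to 80%, 14 in all and 4 in none. Of the 80 members under 70%, 32 had a TSS peak in all and 8 in none. The mean share of samples with a TSS peak was 82% in the most similar group, 61.3% at 80% to 90%, 65.5% at 70% to 80% and 71.2% under 70%, so it did not run in the order of identity.

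The most similar pair was OR8B2 and OR8B3 of cluster 10, with 98.7% identity and 12 differences over 939 coding bases. To show how little tells such copies apart, 100 bases of the coding strand from base 808 are printed for both, from chr11:124382437-124382536 and chr11:124396445-124396544 (hg38, minus strand), with the only base that differs in capitals.
OR8B2: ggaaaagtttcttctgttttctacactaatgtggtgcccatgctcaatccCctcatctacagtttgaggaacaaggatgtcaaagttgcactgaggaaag
OR8B3: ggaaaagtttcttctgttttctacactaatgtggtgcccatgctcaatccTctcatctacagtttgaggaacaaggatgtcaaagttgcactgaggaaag
OR8B2 had a TSS peak in 4 samples, with -log10 q-values of 1.99 in WT replicate 1, 5.51 and 3.08 in 231K, and 3.06 in 232P replicate 1. OR8B3 had it in 3 samples, with 1.81 in WT replicate 2 and 4.05 and 1.84 in 231K. Of another such pair, OR52I2 had a TSS peak in 6 samples and OR52I1, at 97.3% identity, in 2. Similar copies were thus not always marked in the same samples, and the part of read placement in this was not tested.

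Tau-KO samples had fewer marked receptor genes on average, within the spread between samples. The mean number of members with a TSS peak was 138.5 ± 10.6 in WT (SD, n = 2) and 111.25 ± 25.5 in Tau-KO samples (SD, n = 4), a difference of -27.25 (exact permutation test over 15 groupings, two-sided, p = 0.267; smallest p possible 0.0667). The Tau-KO samples come from 2 lines, so that their spread mixes lines and replicates. For 231K the difference from WT was 10 members (exact permutation test, p = 0.667), and for 232P it was 44.5 members (exact permutation test, p = 0.33, also the smallest p that 2 against 2 samples allow). Without 232P replicate 1, the difference of the Tau-KO samples fell to 15.2 members. Among all protein-coding genes, the share with a TSS peak was 18.2% and 18.4% in WT and 14.5% to 18.3% in the Tau-KO samples. The cover of the clusters was lower by 8.12 percentage points (exact permutation test, two-sided, p = 0.33), by 1.19 in 231K and by 15 in 232P. Single lists moved this value: the difference was -2.68 percentage points without 232P replicate 1, -3.69 without WT replicate 2, -12.2 without 231K replicate 2 and -12.6 without WT replicate 1. The rest of chromosome 11 also had less cover in the Tau-KO samples, on the mean 0.772 times that of WT, against 0.735 times in the clusters.

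The cover of a cluster relative to the rest of chromosome 11 in the same sample sets each list against its own level. This comparison was added after the data were seen, for the 8 clusters with peaks in all samples. In cluster 7, this ratio was 3.33 and 3.20 in WT, 2.44 and 2.58 in 231K, and 1.79 and 1.96 in 232P. In cluster 4, with 7 OR4 genes (chr11:48216810-48489722), it was 3.20 and 2.28 in WT, 2.15 and 1.30 in 231K, and 1.97 and 1.23 in 232P. In both clusters all 4 Tau-KO samples lay below both WT samples, by 0.59 and 0.74 on the log2 scale on average (exact permutation test, two-sided, p = 0.133 for each, 0.533 after adjustment over 8 clusters). With permutation within replicate numbers, p was 0.222 in cluster 7 and 0.111, the smallest possible there, in cluster 4. Without WT replicate 1, the difference in cluster 4 was -0.50. Among 258 windows of 100 kb outside the clusters with cover in all samples, all Tau-KO samples lay below both WT samples in 10.1%, and the median difference was -0.08. Clusters 4, 7 and 10 are longer, with 273, 1647 and 829 kb, and windows of their length were not used for this ratio. In cluster 10, all Tau-KO samples lay above both WT samples, by 0.08 (exact permutation test, p = 0.2), which 3.49% of the windows did. In the 5 other clusters the groups overlapped, with differences between -0.13 and 0.16. This depended on the peaks counted: with only those of a -log10 q-value of at least 5, all Tau-KO samples lay below both WT samples in clusters 7, 8 and 9, by 1.77, 0.42 and 0.38 (exact permutation test, p = 0.2, 0.133 and 0.133). The share of windows outside the clusters that did so was not computed at this threshold. The cover of cluster 7 was then 2.23% and 5.48% in WT, 1.12% and 5.31% in 231K, and 0.0129% and 1.01% in 232P. The value of 1.77 thus leans on 232P replicate 1, and it was not computed without this list. Clusters 2 and 4 had no relative value at this threshold. With 2 against 4 samples the smallest p possible is 0.0667, so that no gap of any size could pass 0.05 here.

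**Figure D5:**
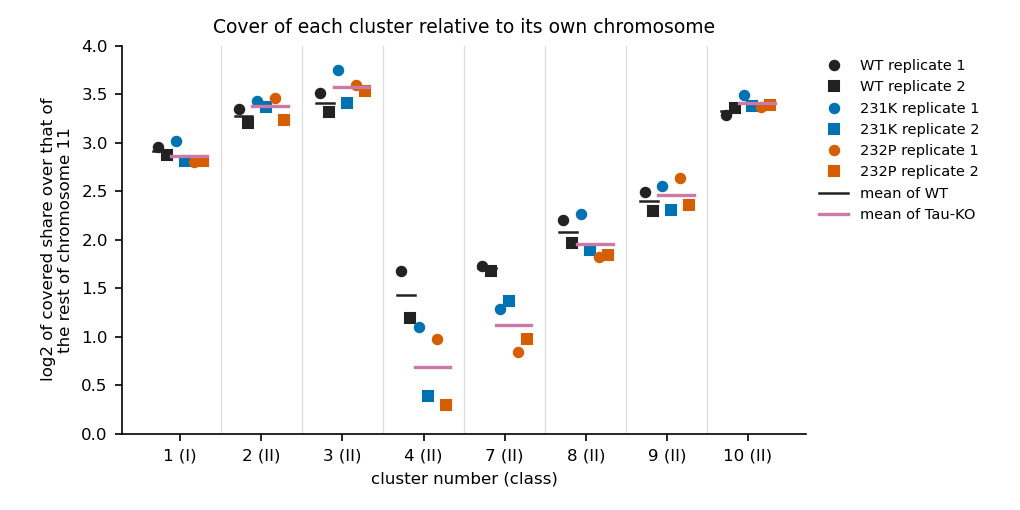
Log2 of the covered share of a cluster over that of the rest of chromosome 11 in the same sample (vertical axis) for the 8 clusters with peaks in all samples, with points by sample and lines for the means of WT (black) and Tau-KO (pink). In clusters 4 and 7 all Tau-KO points lie below both WT points, and in the other clusters the means lie within 0.16 of each other.

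Around the centromere, the WT samples held more peaks than the Tau-KO samples in some stretches. These stretches were chosen after their values were seen and are given with no test. In the first 500 kb of cluster 7, WT replicates 1 and 2 had 62 and 36 peaks, 231K had 5 and 18, and 232P had 0 and 3. Peaks covered 5.04% and 5.34% of this stretch in WT, 0.258% and 1.99% in 231K, and 0 and 0.238% in 232P. Between clusters 6 and 7 (chr11:54707903-55343200), there were 12 and 7 peaks in WT, 0 and 0 in 231K, and 0 and 1 in 232P. Over the whole 1463 kb between clusters 4 and 5, all samples held many peaks, with 375 and 271 in WT, 281 and 180 in 231K, and 91 and 175 in 232P, and a cover of 14.6% and 17.6%, 10.6% and 12.9%, and 2.34% and 10.1%. In the first 100 kb after cluster 4, cover was 8.46% and 7.11% in WT, 1.09% and 0 in 231K, and 0 in both 232P samples. The rest of cluster 7 was covered to 18.3% and 25.4% in WT, 13.5% and 22.4% in 231K, and 2.96% and 13.0% in 232P, where the groups overlap. Over the chromosome, cover in all Tau-KO samples lay below both WT samples in 9 of 113 windows of 1 Mb with a peak, or 7.96%. Of these 9, 4 hold members of clusters 4, 5 and 7. Not all peaks in these stretches were weak: OR5D18, 476 kb into cluster 7, had a peak of 4578 bp with a -log10 q-value of 7.60 in WT replicate 2. The part of depth in the missing peaks was not tested.

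Members that lost the TSS peak were few. A TSS peak in both WT samples was found for 126 of the 172 members and for 16.5% of all genes. Of these 126, 4 had none in either sample of 231K, or 3.17%, against 2.52% of all genes marked in both WT samples. In 232P, 14 of 126 had none, or 11.1%, against 7% of all genes. Both lines had none at the same 4 members, 3.17% against 1.21%. For receptors of other chromosomes, 2 of 183 were without it in 231K and 9 in 232P. A TSS peak in neither WT sample was found for 21 members, where 79.9% of all genes had none. Of these 21, 0 had it in both samples of 231K or of 232P, where 0.206% and 0.0813% of all such genes did. The counts depend on single lists: without 231K replicate 2, 15 members counted as lost in 231K, without WT replicate 2 it was 11, and without 231K replicate 1 it was 7. For 232P, the count was 56 without 232P replicate 2 and 29 without WT replicate 2.

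The 4 members lost in both lines were OR4A15, OR4C6 and OR5D14 in cluster 7 and OR4X1 in cluster 4. OR4X1 had -log10 q-values of 2.11 and 2.41 in WT, OR4C6 of 1.99 and 1.81, OR4A15 of 1.94 and 1.59, and OR5D14 of 1.78 and 1.81. These values belong to the strongest peak per gene and sample. All 8 were weak, and the highest fold enrichment among them was 3.36. Of the members lost in 232P alone, OR52W1 at the end of cluster 1 had the highest median over the 6 samples with no peak set to 0, with 3.52 and 5.96 in WT and 7.94 and 6.98 in 231K. OR51A2, whose start window is unique in 89.3% of its 100-base sequences, had 3.20 and 4.69 in WT and 4.05 and 3.83 in 231K. OR6X1 at the start of cluster 10 differed more between replicate numbers, with 1.56 and 8.55 in WT and 2.12 and 12.5 in 231K. Also in this group were OR5D18, OR10AG1, OR1S2, OR56B1 and OR5AN1, with WT values between 2.11 and 7.60. By class, 3 of 45 class I members with a TSS peak in both WT samples were lost in 232P, or 6.67%, and 11 of 81 class II members, or 13.6%. In cluster 7, it was 6 of 28, or 21.4%. These differences were not tested.

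The genes that act with the receptors split into marked and unmarked ones. Of 22 genes of olfactory transduction and receptor choice, 10 had a TSS peak in all 6 samples, 9 in none and 3 in some, where 11.4% of all genes had it in all 6 and 78.1% in none. Marked in all were GNAL, the olfactory G protein, the channel subunits CNGA2 and CNGA4, the chloride channel ANO2, the exchanger SLC24A4, the receptor chaperone RTP1, and the transcription factors LHX2, EBF2, EBF3 and EMX2. LHX2, needed for receptor choice, had a median -log10 q-value of 12.1, ANO2 of 11.8 and GNAL of 9.11, beside 11.6 at OR56A3 and 7.88 at OR8A1. These are the strongest peaks over 11 annotated starts of ANO2, 10 of GNAL and 3 of OR8A1, so the lengths searched differ. No TSS peak in any sample was found at ADCY3, the adenylyl cyclase of the pathway, at CNGB1, OMP, RIC8B, STOML3, EBF1 and EBF4, or at LDB1 and KDM1A, which most cells express. RTP2 had a TSS peak in 4 samples, REEP1 in 2 and GNG13 in 1. Of 9 genes of the adrenergic neuroblastoma state, 7 had no TSS peak in any sample and 0 had it in all 6, where 78.1% of all genes had none, so these genes do not check the cell type.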

How the data were processed

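H3K27me3 ChIP-seq peak lists of 6 samples (3 genotypes, 2 replicates each) were analysed. Per the study's methods, the authors removed adapters (trimmomatic), aligned the reads to the hg38 genome (BWA) and found peaks with the broad peak setting of MACS version 2; the control and threshold are not given in the sources used here, and the files have the layout of narrow peaks, 1 list per sample. Each list holds more peaks than the range of counts that the methods give. The submitters' processing notes name BWA and deepTools. The deposited lists hold the fold enrichment at the summit as a ratio, the -log10 p-value and -log10 q-value, and a score, which the authors' caller set to 10 times the -log10 q-value. Local background and reads at the summit were computed from fold enrichment and p-value. Read depth is not in the lists, so no interval from counting is given. The number of per-sample columns not used was 0. The methods use limma on read counts, which peak lists do not hold.

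A TSS peak is a peak with at least 1 bp within 1 kb of any start annotated in GENCODE release 44. Cover is the share of bases under peaks. Differences between genotypes were tested by exact permutation over samples and paired differences by flipping signs over the 6 samples, with Benjamini-Hochberg adjustment over 12 tests. Replicates are separate samples by their labels, and p-values measure the spread between them. Uniqueness is the share of 100-base sequences that occur once in the genome on either strand. Nearest copies were found by edit distance of coding DNA, since protein sequences were not used here. Python 3.11.15, numpy 2.4.6, scipy 1.17.1, numba 0.67.0, edlib 1.3.9.post1 and matplotlib 3.10.9 were used, and scripts were tested on simulated data.

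Named genes were the 12 members with a TSS peak in the most samples (ties by the median -log10 q-value, 0 for no peak), up to 8 lost or gained per line, the cluster ends, the most similar pair, and up to 8 other genes inside clusters. The members, lists and tests were chosen with earlier results of these data known. Alternatives were other peak thresholds, an equal number of peaks per sample, other windows, merged peaks, unique sequence only, each sample left out, and permutation within replicate numbers. Values of some single genes are not reported here.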

Additional observations from a re-analysis of the deposited data

How the results depend on the processing

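Of 161 alternatives to the results with a test or count, 116 left the direction and the side of the threshold, or the count within 1.5 times, as they were. With peaks of a -log10 q-value of at least 5, 1 member had a TSS peak in all 6 samples, 2 were lost and 2 gained in 231K, class II exceeded class I members by 1.17 percentage points, and the median fold enrichment of clusters minus rest was -0.00119. Cover differences shrank there, to -2.43 points for class II minus class I, 8.38 for clusters minus rest and -3.51 for Tau-KO minus WT. With an equal number of peaks per sample, 1 member was lost and 2 were gained in 231K, 1 was gained in 232P, and the fold enrichment difference was 0. With at least 50% of the start windows covered, 2 members had a peak in all samples, 2 were lost and 5 gained in 231K, and class II minus class I was -2.94 points (exact permutation test, p = 0.344). At a q-value under 0.05 the -log10 q-value difference was 0, and with peaks within 1 kb merged the width difference was 352 bp (exact permutation test, p = 0.03125). The cause of these shifts was not tested. Leaving out each sample in turn, members in all samples ranged from 65 to 97, lost members from 4 to 15 in 231K and 14 to 56 in 232P, and gained members from 0 to 4 and 0 to 2. Class II minus class I ranged from -11.6 to -9.44 points in cover and from -15.6 to -13.7 in members, and clusters minus rest from 19.3 to 24.1 points, where 5 samples allow no p under 0.0625. The deviations of samples with the same replicate number correlated by 0.0851, 0.121 and 0.0411, not all over 0.1, so the numbers were not taken as a pairing, although peak width and cover differed by number in each genotype. With a replicate block, the difference of Tau-KO and WT stayed at -27.25 members (exact permutation test, p = 0.33) and -8.12 points of cover (p = 0.222), the smallest p possible being 0.111. Of the 29 alternatives added after seeing the data, which cover clusters 4, 7 and 10 relative to the rest, 1 reversed: cluster 10, with -0.14 at a -log10 q-value of at least 5. There cluster 7 moved from -0.59 to -1.77, with a cover of 0.0129% in 232P replicate 1 and 1.01% to 5.31% in the other Tau-KO samples. At the same threshold, cluster 3 turned from 0.16 to -0.36 and cluster 9 from 0.06 to -0.38. With an equal number of peaks, cluster 9 was at -0.06. The threshold of a -log10 q-value of at least 5 gave no relative value for clusters 2 and 4, where 232P replicate 1 then had no cover. The number of peaks per list limits what absent peaks can show.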
